A study of Mus musculus with 14 samples.

Results

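The genes described here code for heat shock proteins of the cytosol and the mitochondrion, the chaperones that fold proteins and keep them from clumping. The set was given by symbol as Hspa8, Hsp90aa1, Hsp90ab1, Dnaja1, Dnajb1, Hsph1, Hspd1, Hspe1, Hspb1 and Bag6, and every probe set that the platform annotation lists under 1 of these 10 symbols was taken. That gave 22 of the 45101 probe sets on the array and 9 of the 10 genes, and none of the 22 was listed with another gene as well. Hsp90ab1 was not analysed here, because no probe set was listed under its symbol. A filter kept the upper 50% of probe sets by mean signal, and 19 of the 22 passed it. The 3 that did not pass were a pair of dim Hsp90aa1 probe sets and 1 of Hspb1.

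Livers were compared between 2 groups of male CBA/J mice, an inbred strain, with 7 mice per group and 1 Affymetrix array per mouse. In the krill group the diet held a krill powder extract, and in the control group it did not. Both diets were built on the AIN93M formula and were matched in total protein and total lipid, but not in their fatty acid or amino acid make-up. All mice were housed singly on 84 kcal per week, began their diet at 2 months of age and were sampled at 5 months, after 3 months of feeding. Because the RNA came from whole liver, fewer cells of a type and less RNA per cell cannot be told apart. Each p-value rests on the spread from mouse to mouse, arrays included, and the number of arrays limits the precision.

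Cytosolic folding of this kind runs through a relay. HSP70 proteins such as Hspa8 bind short hydrophobic stretches of unfolded chains, J proteins such as Dnaja1 and Dnajb1 deliver the chains and trigger ATP cleavage, and HSP110 proteins such as Hsph1 swap the spent nucleotide. HSP90 proteins then finish a narrower set of clients, and in mitochondria Hspd1 (HSP60) and its lid Hspe1 (HSP10) enclose a protein while it folds. Many of these genes can be raised together by heat shock factor 1, which binds repeats of the unit nGAAn in their promoters. The liver makes plasma proteins and mitochondrial enzymes in bulk and expresses these chaperones even without heat.

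The 22 probe sets did not move as a block. Of the 19 tested, 6 were higher in krill livers, 5 were lower and 8 did not pass the threshold (limma, Benjamini-Hochberg adjusted p under 0.05 over all 22518 tested probe sets). On the whole array 20.8% of tested probe sets were higher in krill livers and 25.2% were lower, 46% in all, so the members' shares of 31.6% and 26.3%, 57.9% together, stood not far from that background. Hspa8, Dnajb1 and Hspe1 were higher at their brightest probe set, while Hsp90aa1 and Bag6 were lower. Dnaja1, Hsph1, Hspd1 and Hspb1 did not pass at theirs. The median log2 change of the 19 was -0.32, beside -0.003 over all tested probe sets, and without the 4 krill arrays described next it was 0.09, beside -0.09.

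The krill arrays also differed from the control arrays in their controls, and these values stand beside every result below. The hybridisation spike-ins, bacterial RNAs added in fixed amounts, had a mean log2 signal of 13.71 ± 0.62 on krill arrays and 12.92 ± 0.22 on control arrays (SD, n = 7 each, exact permutation test, two-sided, p = 0.0128, adjusted p = 0.0160 over 5 quality measures). Krill replicates 2, 4, 5 and 7 lay above every control array. The ratio of 3' to 5' signal, which grows as RNA or its copies get shorter, was 18.3 ± 5.69 on krill arrays against 6.55 ± 2.34 on control arrays for the pyruvate carboxylase control (exact p = 0.000583, the smallest that 3432 assignments allow, adjusted p = 0.00146). The same ratio for glyceraldehyde phosphate dehydrogenase was 0.964 ± 0.330 on krill arrays and 0.806 ± 0.0496 on control arrays, with overlap (exact p = 0.193). An index that averages the log2 ratios of actin and pyruvate carboxylase, leaving glyceraldehyde phosphate dehydrogenase out, spanned 2.44 to 3.12 on krill arrays and 1.56 to 2.28 on control arrays, without overlap, so diet and this index cannot be told apart. Once the index entered the model, limma called 0 of 22518 probe sets, and 3241 had an unadjusted p under 0.05. Values without krill replicates 2, 4, 5 and 7 leave 3 krill against 7 control arrays. In that comparison 5 members were higher, 3 were lower and 11 did not pass, beside 9.99% higher and 20% lower, or 30% in all, over the whole array.

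**Figure D1:**
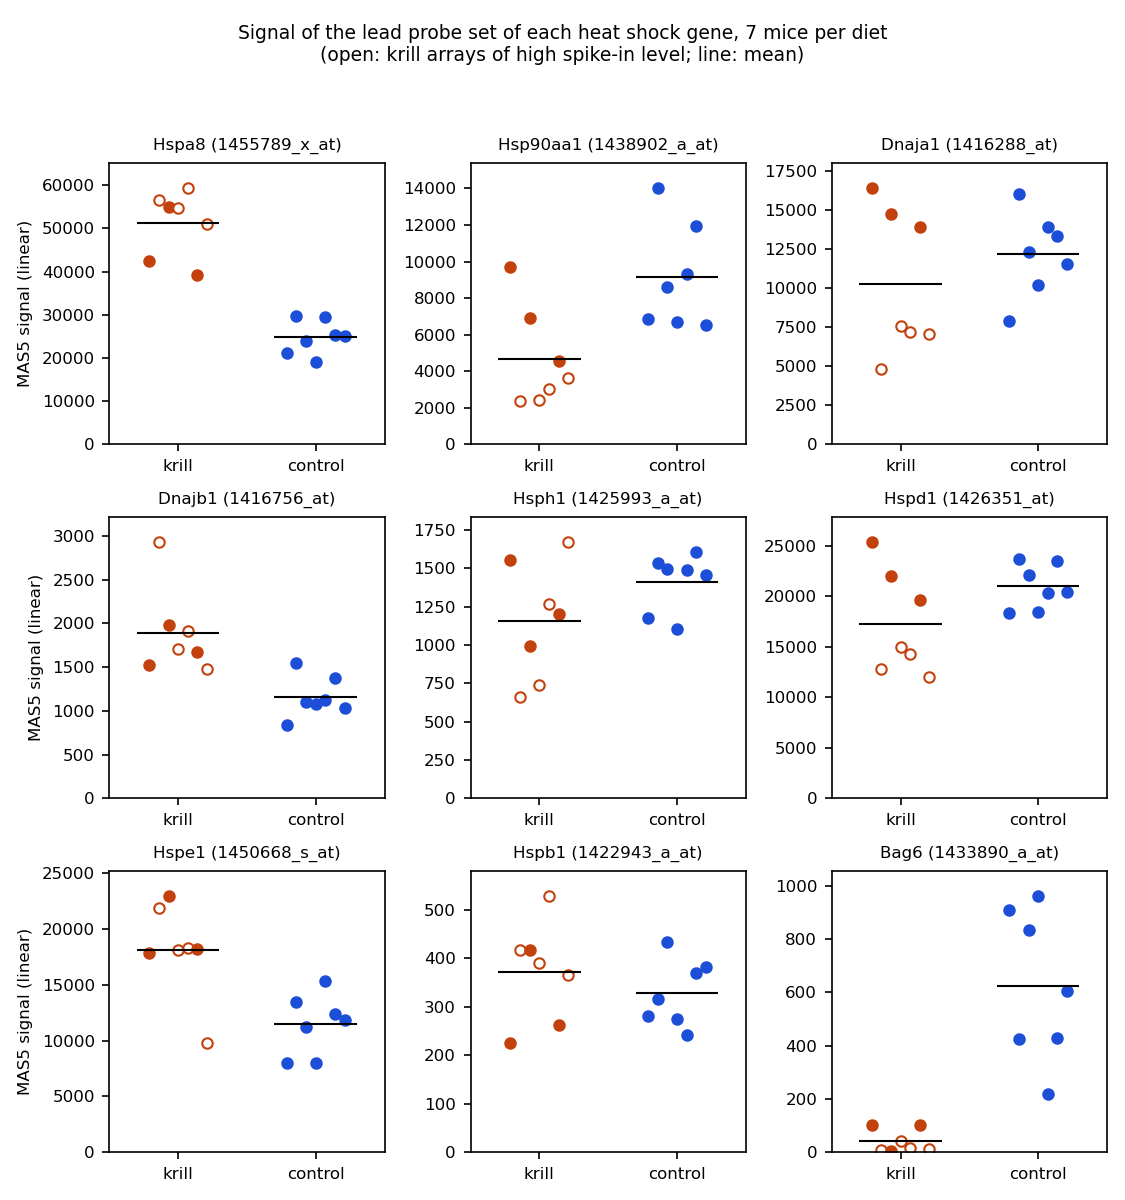
MAS5 signal (linear) of the brightest probe set of each of the 9 genes, with krill left and control right, 1 point per mouse and a line at the mean. Open points are krill replicates 2, 4, 5 and 7. Hspa8 and Bag6 are the genes with no overlap between the diets, and in Dnaja1 and Hspd1 the open points lie at the bottom of the krill group.

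Hspa8, the constitutive cytosolic HSP70, was higher in krill livers at 3 of its 4 probe sets. At probe set 1455789_x_at the krill livers ran from 39192 through a median of 54627 to 59286 units of MAS5 signal, against 19086, 25065 and 29708 units in control livers. Every krill mouse was above every control mouse, a separation in the upward direction that 5.24% of all tested probe sets showed. The means were 51138 ± 7549 units in krill livers and 24851 ± 3956 in control livers (SD, n = 7 each), which is 2.06-fold, or 1.04 on the log2 scale (SE 0.15, limma adjusted p = 6.4e-05). The log2 change was 0.87 (adjusted p = 0.00171) without the 4 krill arrays of high spike-in level.

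Scaling mattered for the size of this difference. The log2 change of 1455789_x_at was 0.50 after quantile normalization (adjusted p = 0.00116) and 0.25 after scaling the arrays on the spike-ins (adjusted p = 0.342). Spike-in scaling moved the median of all tested probe sets to -0.75, and relative to that median Hspa8 stood at 1.00. Centring each array on its own median log2 value gave 0.64 (adjusted p = 0.00668) and moved the median of all to -0.41, which puts Hspa8 at 1.05 relative to it. Of the 6 members called higher with the deposited scaling, 1 passed with centred arrays and 0 with spike-in scaling (limma), while members called lower numbered 10 with spike-in scaling. Averaging the 4 Hspa8 probe sets gave 0.30 (adjusted p = 0.123), which ends the call. The suffix _x_at marks a probe set in which some probes may also match other sequences.

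At 2 other Hspa8 probe sets the log2 changes had the same sign and were smaller. Probe set 1420623_x_at had 22360, 30969 and 34315 units as the lowest, median and highest krill values and 15974, 19204 and 26014 units as the control ones, a log2 change of 0.48 (SE 0.16, adjusted p = 0.0179). In this pair of groups 4 krill mice were above all control mice. Probe set 1420622_a_at had 12304, 17889 and 22098 units in krill livers and 10500, 12035 and 15903 in control livers, a log2 change of 0.43 (SE 0.17, adjusted p = 0.0408) that lost its call when any of 9 single arrays was left out (adjusted p up to 0.0931). Neither passed without the 4 krill arrays of high spike-in level, where the changes were 0.37 (adjusted p = 0.0888) and 0.33 (adjusted p = 0.140), and both turned negative under spike-in scaling, at -0.31 and -0.36. The remaining Hspa8 probe set, 1431182_at, was dim, with 54.9 to 412 units in krill livers and 185 to 651 units in control livers. Its log2 change of -0.74 (SE 0.39, adjusted p = 0.125) did not pass with all arrays, and it passed downward at -1.52 (adjusted p = 0.0103) without the same 4.

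Hsph1, the HSP110 nucleotide exchange factor of Hspa8, gave different answers at its 2 probe sets. The brighter, 1425993_a_at, had 664, 1205 and 1670 units in krill livers and 1102, 1488 and 1606 units in control livers, a log2 change of -0.34 (SE 0.20, adjusted p = 0.180). The groups overlapped broadly there, with krill mice at both ends. The dimmer, 1423566_a_at, had 147, 313 and 860 units in krill livers against 454, 831 and 1050 units in control livers, with 5 krill mice below all control mice. This was 2.33-fold lower in krill livers, or -1.22 on the log2 scale (SE 0.31, adjusted p = 0.00388). It was -0.47 (adjusted p = 0.184) without the 4 krill arrays of high spike-in level, and adding the index to the model turned the sign, to 0.40. Making the spike-in level a covariate gave -0.40 (adjusted p = 0.401). Averaging the 2 probe sets gave -0.78, which passed (adjusted p = 0.00734).

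Hsp90aa1, the stress-inducible cytosolic HSP90, was lower in krill livers at all 3 of its tested probe sets. The brightest, 1438902_a_at, ran from 2379 through 3619 to 9724 units in krill livers and from 6545 through 8605 to 14011 units in control livers. Its means were 4654 ± 2729 units in krill livers and 9139 ± 2880 in control livers (SD, n = 7 each), 2.14-fold lower in krill livers, at -1.10 on the log2 scale (SE 0.29, limma adjusted p = 0.00534). On this probe set 5 krill mice lay below all control mice, and the highest krill mouse lay inside the control range.

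The other tested Hsp90aa1 probe sets had larger log2 changes. At 1426645_at the signals were 761, 1192 and 6089 units in krill livers and 3122, 5132 and 7967 units in control livers, a log2 change of -1.53 (SE 0.38, adjusted p = 0.00344). At 1437497_a_at they were 487, 698 and 3426 units in krill livers and 2797, 3592 and 5333 units in control livers, a log2 change of -1.90 (SE 0.34, adjusted p = 0.000283), or 3.72-fold lower. In each of these, 6 krill mice were below all control mice. Without the 4 krill arrays of high spike-in level the changes were -0.38 for 1438902_a_at (adjusted p = 0.286), -0.43 for 1426645_at (adjusted p = 0.245) and -0.93 for 1437497_a_at (adjusted p = 0.0117), so that 1 of the 3 still passed. The changes of 1438902_a_at and 1426645_at turned to 0.18 and 0.15 when the index was added to the model. With the spike-in level as a covariate none of the 3 passed, with the largest change at -0.91 for 1437497_a_at (adjusted p = 0.0503).

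The remaining Hsp90aa1 probe sets fell under the signal filter. Probe set 1433251_at spanned 47.3 to 240 units in krill livers and 13.5 to 99.6 units in control livers, and with no filter its log2 change of 0.88 did not pass (adjusted p = 0.113). Probe set 1441827_x_at spanned 2.2 to 87.2 units in krill livers and 3.35 to 73.2 units in control livers, with a log2 change of 0.01 (adjusted p = 0.990). Detection calls were not used here, and a low signal is not read as an absent transcript.

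**Figure D2:**
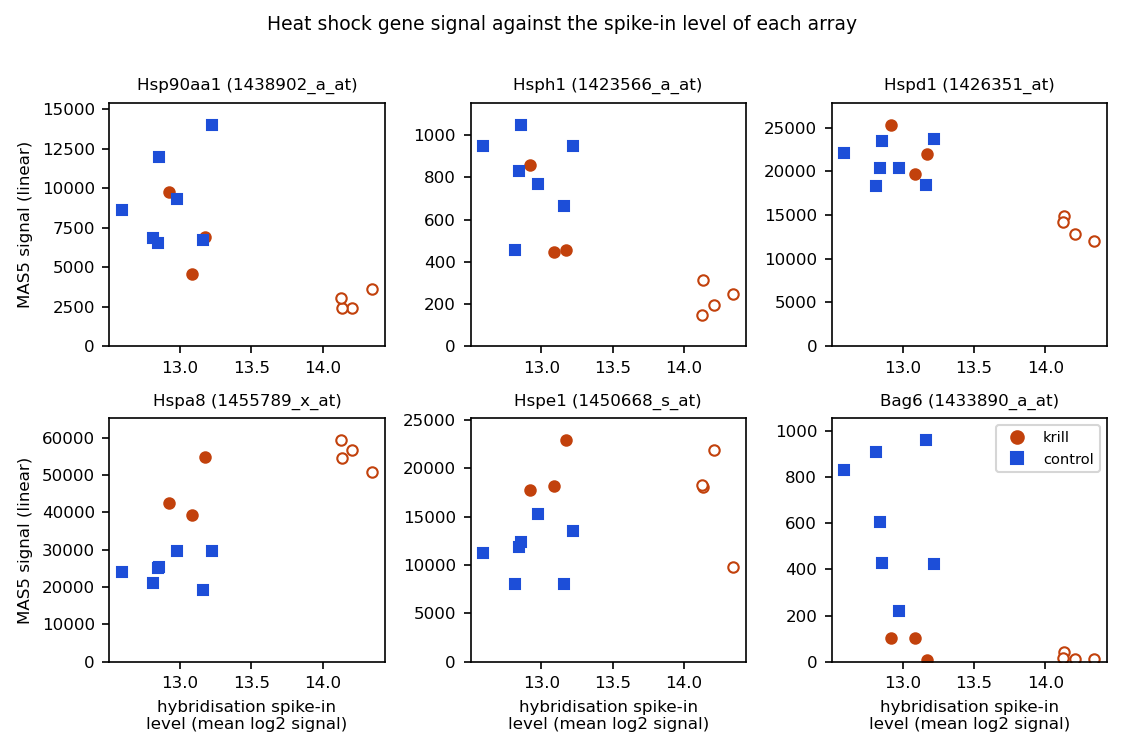
MAS5 signal (linear) of 6 probe sets against the mean log2 signal of the hybridisation spike-ins on the same array, with circles for krill (open for replicates 2, 4, 5 and 7) and squares for control. The open circles are low for Hsp90aa1, Hsph1 and Hspd1, and for Hspa8 they are at the level of the upper filled circle or near it, while all krill values of Bag6 are low.

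Dnaja1, a farnesylated J protein that partners Hspa8, did not pass at any of its 3 probe sets. Probe set 1416288_at had 4834, 7598 and 16411 units in krill livers and 7889, 12293 and 16041 units in control livers, a log2 change of -0.35 (SE 0.25, adjusted p = 0.270). Its krill group was split, with replicates 2, 4, 5 and 7 below all control mice and the others inside or above the control range. Without those 4 the change was 0.33 (adjusted p = 0.192). Probe set 1460179_at, which the annotation ties to the same source sequence as 1416288_at, pointed upward at 0.39 (SE 0.21, adjusted p = 0.132), with 7068 to 13880 units in krill livers and 5530 to 12008 units in control livers. It passed without the 4 arrays, at 0.70 (adjusted p = 0.0156). The third, 1459835_s_at, had medians of 6154 units in krill livers and 6180 in control livers, and its log2 change of 0.07 had an SE of 0.21 (adjusted p = 0.799).

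Dnajb1, the J protein that works with HSP70 to pull apart aggregates, also split by probe set although both of its probe sets are tied to 1 source sequence. Probe set 1416756_at had 1477, 1710 and 2927 units in krill livers and 834, 1103 and 1546 units in control livers, with 5 krill mice above all control mice. The means were 1885 ± 495 units in krill livers and 1156 ± 234 in control livers (SD, n = 7 each), 1.61-fold, or 0.69 on the log2 scale (SE 0.18, adjusted p = 0.00525). It passed without the 4 arrays as well, at 0.59 (adjusted p = 0.0250), and stood at -0.09 under spike-in scaling. That is 0.66 above the median of all tested probe sets, a distance that such scaling hardly changes by construction. The call ended with centred arrays (0.28, adjusted p = 0.363), with the spike-in level as a covariate (0.53, adjusted p = 0.127) and when the 2 probe sets were averaged (0.10, adjusted p = 0.600). Probe set 1416755_at had 327, 820 and 1234 units in krill livers and 812, 1043 and 1431 units in control livers. Its log2 change of -0.48 (SE 0.26, adjusted p = 0.129) did not pass, and without the 4 arrays it was -0.03.

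**Figure D3:**
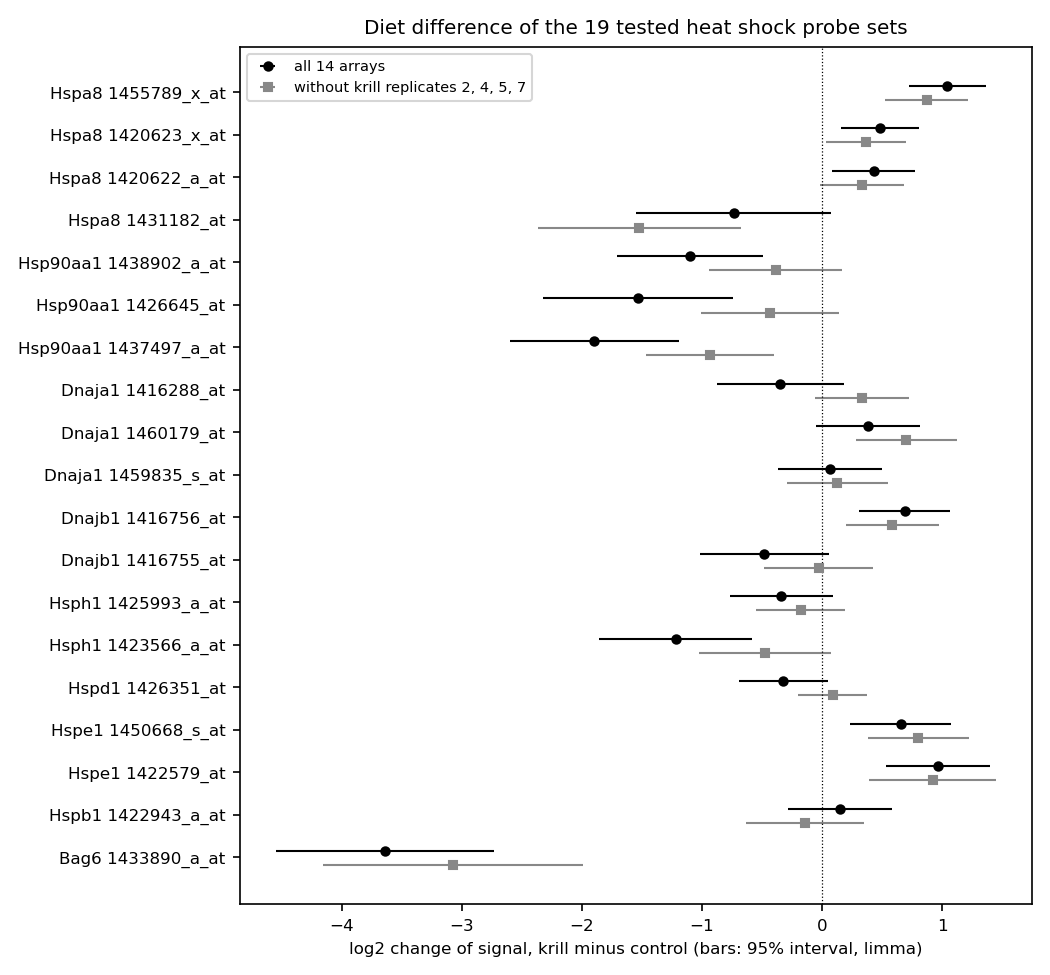
Log2 change of signal, krill minus control, of the 19 tested probe sets with 95% limma intervals, from all 14 arrays (black circles) and without krill replicates 2, 4, 5 and 7 (grey squares). Bag6 lies far to the left in both, the Hsp90aa1 intervals shift toward 0 without the 4 arrays, and Hspe1 stays to the right in both, although under spike-in scaling its brighter probe set stood at -0.13.

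The mitochondrial chaperonin pair is coded by neighbouring genes, of which Hspe1 was higher in krill livers and Hspd1 did not pass. Under spike-in scaling the brighter Hspe1 probe set turned negative. Hspd1 and Hspe1 lie head to head on chromosome 1, and in the RefSeq windows used (GRCm38.p6) 215 bases lie between the Hspe1 start and the farther of the 2 listed Hspd1 starts. From these starts both genes read out of that stretch in opposite directions, which is why it is shown. The stretch is written along the plus strand with overlapping matches of the heat shock element motif in capitals. It lies at chr1:55087933-55088147.
Hspd1-Hspe1: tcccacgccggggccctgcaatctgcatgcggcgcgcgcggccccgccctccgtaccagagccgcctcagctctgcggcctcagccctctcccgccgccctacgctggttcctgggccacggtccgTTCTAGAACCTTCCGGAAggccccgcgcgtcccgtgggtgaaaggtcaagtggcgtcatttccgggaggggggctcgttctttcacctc

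The motif was searched on both strands in its short forms GAANNTTC and TTCNNGAA, each its own reverse complement, and in 2 long forms, in which a short form is followed after 2 more bases by another GAA or TTC, alternating. The long forms are reverse complements of each other and contain the short ones. The capitals hold both long forms, overlapping, which begin 89 and 84 bases before the Hspe1 start. Of 32851 RefSeq windows of 300 bases (250 before to 50 after a start), 15.1% held a short form and 0.603% a long form. The other listed Hspd1 start is nearer to the Hspe1 start but lies past it, at base 55088243, outside the stretch shown. Its window had no match. A match is a run of letters, and whether a factor bound there in these livers was not measured.

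At Hspe1, the lid of the chaperonin, both probe sets were higher in krill livers. Probe set 1450668_s_at had 9771, 18211 and 22907 units in krill livers and 8004, 11861 and 15324 units in control livers, with 6 krill mice above all control mice and replicate 7 inside the control range. Its means were 18127 ± 4218 units in krill livers and 11467 ± 2701 in control livers (SD, n = 7 each), 1.57-fold, or 0.65 on the log2 scale (SE 0.20, adjusted p = 0.0129). Probe set 1422579_at had 2599, 4201 and 5457 units in krill livers and 1368, 1932 and 2930 units in control livers, 1.95-fold, or 0.97 on the log2 scale (SE 0.21, adjusted p = 0.00129). Both passed without the 4 krill arrays of high spike-in level, at 0.80 (adjusted p = 0.00763) and 0.92 (adjusted p = 0.0121). Spike-in scaling put 1450668_s_at at -0.13, which is 0.62 above the median of all tested probe sets, a distance that such scaling hardly changes by construction. Neither passed with centred arrays, at 0.25 (adjusted p = 0.486) and 0.56 (adjusted p = 0.0966).

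Hspd1, the barrel of the same chaperonin, did not pass. Its only probe set, 1426351_at, had 12038, 14924 and 25338 units in krill livers and 18323, 20419 and 23703 units in control livers. The krill group was split as at Dnaja1, with replicates 2, 4, 5 and 7 below all control mice. The log2 change was -0.32 with a 95% interval from -0.69 to 0.05 (adjusted p = 0.139), and without the 4 arrays it was 0.09 (adjusted p = 0.656). It passed downward after quantile normalization at -0.62 (adjusted p = 0.00484), under spike-in scaling at -1.11 (adjusted p = 0.0138), and without krill replicate 1 at -0.42 (adjusted p = 0.0371).

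Differences between 2 probe sets of the same array do not depend on a factor that multiplies the whole array, apart from the added constant of 16 units. They can still depend on the 3'/5' index, which does not overlap between diets and may act differently on each probe set. With the index in the model Hsp90aa1 went from -1.10 to 0.18 and Hspd1 from -0.32 to 0.44. Hspa8 went from 1.04 to 1.08 and Hspe1 from 0.65 to 1.14, and none of these passed. The differences were computed for 4 pairs picked after the values were seen, so each is given as a description with no test. How many other pairs of probe sets separate the diets as far was not counted. Log2 Hspe1 minus log2 Hspd1, at the brightest probe sets, was 0.08 ± 0.43 in krill livers and -0.90 ± 0.27 in control livers (SD, n = 7 each). Of the krill mice 6 were above all control mice. The difference between diets was 0.98, and 0.71 without the 4 krill arrays of high spike-in level.

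Log2 Hspa8 minus log2 Hsp90aa1 was 3.62 ± 0.92 in krill livers and 1.48 ± 0.31 in control livers (SD, n = 7 each), with all 7 krill mice above all control mice. Hspa8 alone already separated the diets upward and Hsp90aa1 was called lower, so this separation was largely given in advance. Without the 4 krill arrays of high spike-in level the difference between diets was 1.26, against 2.14 with them. The other 2 pairs are probe sets of 1 gene. For Dnajb1 the log2 difference 1416756_at minus 1416755_at was 1.28 ± 0.93 in krill livers and 0.12 ± 0.23 in control livers. For Hsph1 the difference 1425993_a_at minus 1423566_a_at was 1.70 ± 0.82 in krill livers and 0.82 ± 0.25 in control livers. The Dnajb1 difference between diets was 1.17 over all 14 arrays and 0.61 without the 4. For Hsph1 these values were 0.88 and 0.29.

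**Figure D4:**
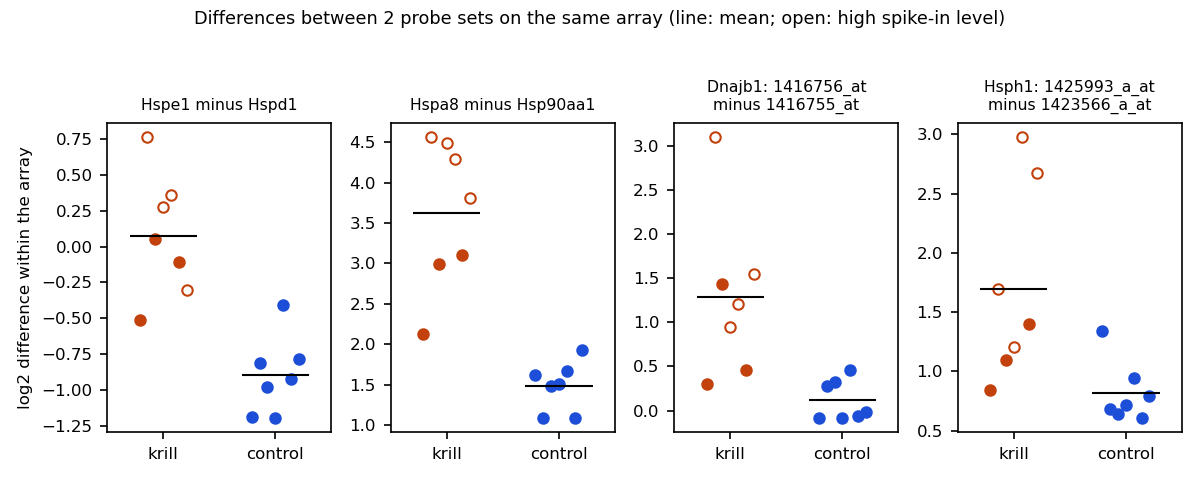
Log2 difference between 2 probe sets on the same array for 4 pairs, with krill left and control right, 1 point per mouse and a line at the mean. Open points are krill replicates 2, 4, 5 and 7. All 7 krill mice lie above the control mice for Hspa8 minus Hsp90aa1, and 6 do for Hspe1 minus Hspd1. The pairs were picked after the values were seen, and other pairs were not counted.

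Hspb1, the small heat shock protein HSP27 in humans, which holds unfolded chains without ATP, did not pass. Probe set 1422943_a_at had 225, 389 and 528 units in krill livers and 242, 315 and 434 units in control livers, with each krill extreme outside the control range. The log2 change was 0.15 with a 95% interval from -0.28 to 0.58 (adjusted p = 0.565), and without the 4 arrays it was -0.14. Its other probe set, 1425964_x_at, was under the filter, with 23.4 to 171 units in krill livers and 8.77 to 214 units in control livers.

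Other members also had a motif match near a listed start, and 60 or 59 bases around it are shown for comparison with the chaperonin promoter, each along its own gene's strand with the short form in capitals. They lie at chr4:40722318-40722377 for Dnaja1 (plus strand), chr5:135887786-135887845 for Hspb1 (plus strand) and chr5:149636337-149636395 for Hsph1 (minus strand).
Dnaja1: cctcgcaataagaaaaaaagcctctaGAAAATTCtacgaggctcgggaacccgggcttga
Hspb1: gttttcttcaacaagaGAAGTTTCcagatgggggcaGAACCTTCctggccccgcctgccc
Hsph1: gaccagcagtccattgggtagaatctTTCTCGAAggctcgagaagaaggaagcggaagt

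The Dnaja1 match began 124 bases before the first listed start and those of Hspb1 117 and 97 bases before its start. At the other listed Dnaja1 starts the windows had no match. The Hsph1 match shown began 33 bases before the start, and a long form began 37 bases after it. The windows of Dnajb1 and Bag6 had no match. Thus the promoters with a match at a listed start belonged to Hspe1, Hspd1, Dnaja1, Hspb1 and Hsph1, of which Hspe1 and Hspd1 share the same matched stretch. At the brightest probe set Hspe1 passed upward and the others did not pass, while Hsph1 passed downward at its dimmer probe set. Of the genes without a match, Dnajb1 passed upward at its brightest probe set and Bag6 passed downward. Windows were found for 7 of the 10 members.

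Bag6, a chaperone that holds tail-anchored and mislocalised proteins in the cytosol, had the largest difference of the 19. Its probe set 1433890_a_at had 6.77, 17.9 and 104 units in krill livers and 218, 605 and 960 units in control livers. No krill mouse reached the lowest control mouse, a downward separation that 7.88% of all tested probe sets showed. Every krill value was also below 124 units, the lowest mean signal among tested probe sets, so Bag6 passed the filter through the control group. The log2 change of -3.64 (SE 0.43, adjusted p = 2.06e-05) therefore leans on the added constant of 16 units and was -4.39 with a constant of 1 and -2.67 with 64. It was -3.07 (adjusted p = 0.000999) without the 4 krill arrays of high spike-in level.

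The proteins that work with Bag6 went both ways. Of 8 tested genes of the BAG6 complex and of tail-anchored protein insertion, 2 were higher in krill livers, 4 were lower and 2 did not pass, with a median log2 change of -0.18. Over all 11343 tested genes, each at its brightest probe set, 23.2% were higher and 24.7% were lower, with a median of 0.05. Sgta, which passes tail-anchored clients on with the help of Bag6, had 513 ± 264 units in krill livers and 1542 ± 200 units in control livers (SD, n = 7 each, log2 change -1.75, SE 0.30, adjusted p = 0.000219). Rnf126, the ubiquitin ligase that Bag6 recruits, was at -1.63 (SE 0.44, adjusted p = 0.00622). Get3, the ATPase that carries tail-anchored proteins, was at 0.76 (SE 0.21, adjusted p = 0.00786), and -0.02 under spike-in scaling. Get1, its receptor subunit in the endoplasmic reticulum, was at 0.88 (SE 0.24, adjusted p = 0.00754). When the 4 krill arrays of high spike-in level were left out, Sgta (-1.04) and Get3 (0.52, adjusted p = 0.0498) passed, and Rnf126 (-0.52) and Get1 did not. The whole list then had 2 genes higher and 2 lower, 25% each way, beside 12.3% and 19.3% over all genes.

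The heat-inducible HSP70 genes Hspa1a and Hspa1b, which are near-identical copies whose signals may not be told apart, were lower in krill livers. Hspa1b probe set 1427126_at lay between 572 and 1689 units in krill livers and between 2797 and 6190 units in control livers. The groups did not overlap, a downward separation that 7.88% of all tested probe sets showed. This probe set was 3.76-fold lower, or -1.91 on the log2 scale (SE 0.24, adjusted p = 2.60e-05). The other Hspa1b probe sets were at -1.55 for 1427127_x_at (SE 0.25, adjusted p = 0.000143) and -1.03 for 1452318_a_at (SE 0.33, adjusted p = 0.0156). Hspa1a averaged 101 ± 53.1 units in krill livers and 302 ± 151 units in control livers (log2 change -1.49, SE 0.37, adjusted p = 0.00352). The krill mean lay under the lowest mean signal tested, so Hspa1a passed the signal filter through the control group, and it did not pass once the spike-in level was a covariate (-1.31). All 4 probe sets passed without the 4 krill arrays of high spike-in level. They were then at -1.68 for 1427126_at, -1.57 for 1427127_x_at, -1.35 for 1452318_a_at and -1.35 for Hspa1a. As a covariate, the 3'/5' index ended all 4 calls. The changes became -1.36 for 1427126_at (adjusted p = 0.240), -1.47 for 1427127_x_at, -1.72 for 1452318_a_at and -0.74 for Hspa1a. Thus the inducible HSP70 genes were lower while constitutive Hspa8 was higher at its 3 bright probe sets, of which 2 turned negative under spike-in scaling. Hsf1 itself was not analysed here, since no probe set was listed for it.

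The chaperone genes beyond the members showed the same mix. Of 97 tested genes over all 8 lists, 24 were higher in krill livers, 25 were lower and 48 did not pass, that is 24.7% and 25.8%, close to the shares over all genes. Their median log2 change was 0.01. Without the 4 krill arrays of high spike-in level 20 were higher and 17 were lower, that is 20.6% and 17.5%, beside 12.3% and 19.3% over all genes. Spike-in scaling turned the sign of 10 of the 24 genes called higher and of 0 of the 25 called lower. It moves log2 changes downward as a whole, with the median of all tested probe sets at -0.75. Genes called lower thus had little room to turn, and these counts do not compare how firm the calls are.

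Among 16 tested HSP70 and HSP110 proteins and co-chaperones, 1 was higher, 3 were lower and 12 did not pass. That is 6.25% higher and 18.75% lower, beside 23.2% and 24.7% over all genes. The gene that rose was Bag1, a nucleotide exchange factor, with 5715 ± 761 units in krill livers and 3666 ± 341 units in control livers (log2 change 0.63, SE 0.14, adjusted p = 0.00131), although it was at -0.15 under spike-in scaling. Stub1, the ubiquitin ligase CHIP that marks HSP70 clients, was lower at -0.94 (SE 0.29, adjusted p = 0.0145), and at -0.14 without the 4 arrays, where it did not pass. Of 13 HSP90 co-chaperones, Sugt1 rose, with 4798 ± 729 units in krill livers and 2106 ± 446 units in control livers (log2 change 1.20, SE 0.16, adjusted p = 4.1e-05). Ppp5c, a phosphatase bound to HSP90, was lower at -0.87 (SE 0.21, adjusted p = 0.00347), and Ttc4 was lower at -0.68 (SE 0.24, adjusted p = 0.0281), a call that 5 single arrays ended when left out. Neither Ppp5c nor Ttc4 passed without the 4 arrays, and 10 of the 13 genes did not pass with all arrays. With all arrays the shares of this list were 7.69% higher and 15.4% lower, beside 23.2% and 24.7% over all genes. Without the 4 arrays 3 genes were higher, with Cdc37 and Chordc1 among them, and 1 was lower. Those shares were 23.1% and 7.69%, beside 12.3% and 19.3% over all genes.

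J proteins were balanced, with 5 higher, 5 lower and 9 not passing of 19. That is 26.3% each way, beside 23.2% higher and 24.7% lower over all genes. Dnajb12, a J protein of the endoplasmic reticulum membrane, had 168 ± 127 units in krill livers and 709 ± 211 units in control livers (log2 change -2.22, SE 0.35, adjusted p = 0.000114). Dnajb2 was lower at -1.50 (SE 0.29, adjusted p = 0.000541). Dnajc12, a co-chaperone of the aromatic amino acid hydroxylases, had 2273 ± 633 units in krill livers and 925 ± 170 units in control livers (log2 change 1.25, SE 0.19, adjusted p = 8.3e-05). Dnaja2, a close relative of Dnaja1, was higher at 0.70 (SE 0.14, adjusted p = 0.000785) and at -0.09 under spike-in scaling. These 4 also passed without the 4 krill arrays of high spike-in level, where Dnajb2 was at -0.65.

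In mitochondria, 4 of 15 tested chaperones and proteases were higher in krill livers, 5 were lower and 6 did not pass. These shares of 26.7% higher and 33.3% lower stand beside 23.2% and 24.7% over all genes. Hspa9, the mitochondrial HSP70 that pulls proteins through the import pore, had 3356 ± 3025 units in krill livers and 8411 ± 622 units in control livers (log2 change -1.82, SE 0.42, adjusted p = 0.00208), and without the 4 arrays it was at -0.56 (adjusted p = 0.0438). Its exchange factor Grpel1 went the other way, with 17918 ± 4746 units in krill livers and 8027 ± 1426 units in control livers (log2 change 1.13, SE 0.18, adjusted p = 0.000126). Dnajc15, a J protein of the import motor, was higher at 0.95 (SE 0.17, adjusted p = 0.000252). Lonp1, the matrix protease, was lower at -1.49 (SE 0.29, adjusted p = 0.000511), and at -0.86 without the 4 arrays.

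The cytosolic chaperonin TRiC and prefoldin, the pair that folds actin and tubulin, had 7 higher, 3 lower and 5 not passing of 15, with a median of 0.17, beside 23.2% higher and 24.7% lower over all genes. The subunits moved apart here as well. Cct8 had 924 ± 814 units in krill livers and 3342 ± 219 units in control livers (log2 change -2.28, SE 0.39, adjusted p = 0.000201), and Tcp1 was lower at -1.76 (SE 0.29, adjusted p = 0.000145). The prefoldin subunit Pfdn4 had 4678 ± 3113 units in krill livers and 709 ± 183 units in control livers (log2 change 2.46, SE 0.34, adjusted p = 4.1e-05), and Pfdn1 was higher at 1.22 (SE 0.21, adjusted p = 0.000218). With the 4 krill arrays of high spike-in level left out, 5 genes of this list were higher and 2 were lower, with a median of 0.33, beside 12.3% and 19.3% over all genes. Cct8 was then at -1.08, Tcp1 at -0.90 and Pfdn4 at 1.57, and these 3 still passed.

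Of 4 tested small heat shock proteins, Hspb2 (1.04, adjusted p = 0.0222), Hspb3 (1.38, adjusted p = 0.0414) and Hspb8 (0.52, adjusted p = 0.0223) were higher on the log2 scale and Hspb6 was lower at -1.75. Over all genes 23.2% were higher and 24.7% were lower, and a list of 4 is too short to set against these shares. The control means of Hspb2 and Hspb3, at 91.1 and 54.5 units, and the krill mean of Hspb6 lay under 124 units, the lowest mean signal tested, so these genes passed the filter through the group in which they were high. Leaving out single arrays ended the call of Hspb3 for 10 arrays and that of Hspb8 for control replicate 1 (adjusted p = 0.0532). Hspb6 averaged 114 ± 77.3 units in krill livers and 384 ± 102 units in control livers (SE 0.30, adjusted p = 0.000234) and was the only one of the 4 that passed without the 4 arrays. Hspb8 was at -0.27 under spike-in scaling. Among 7 tested heat shock factors and regulators, Hsf2 was higher at 0.83 (SE 0.30, adjusted p = 0.0305), and Hsbp1 (-1.63, SE 0.27, adjusted p = 0.000169) and Hdac6 (-1.75, SE 0.38, adjusted p = 0.00134) were lower. That is 14.3% higher and 28.6% lower, beside 23.2% and 24.7% over all genes. Hsbp1, which binds heat shock factor 1, and Hdac6, a cytosolic deacetylase that acts on HSP90, passed without the 4 arrays, at -0.89 and -0.94, and Hsf2 did not, nor when any of 7 single arrays was left out (adjusted p up to 0.0695).

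**Figure D5:**
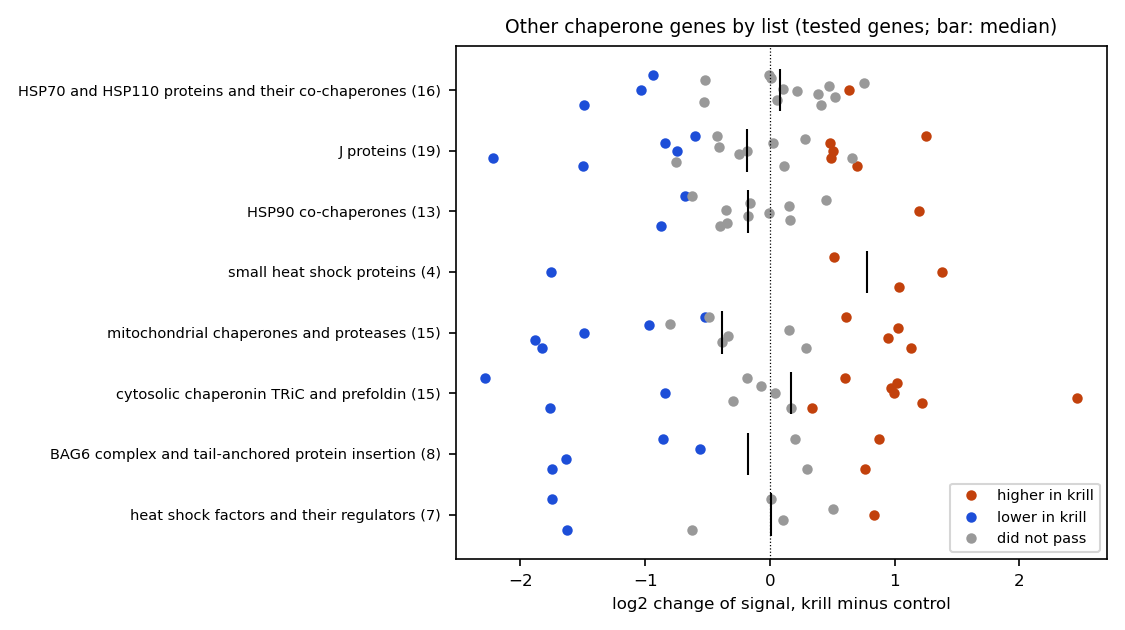
Log2 change of signal, krill minus control, of the 97 tested genes of 8 chaperone lists, 1 point per gene, coloured by whether limma called it higher, lower or neither at an adjusted p under 0.05, with a bar at each list's median. Points lie on both sides of 0 in every list. Under spike-in scaling 10 of the 24 genes called higher turned negative and 0 of the 25 called lower turned positive. That scaling moved the median of all tested probe sets to -0.75, so genes called lower had little room to turn.

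Of 10 hepatocyte marker genes, 9 were listed and all 9 passed the signal filter. Their summed signal was 490902 to 899700 units in krill livers and 394623 to 556988 units in control livers, with 4 genes higher and 1 lower. Kupffer cell or macrophage markers summed to 10219 to 20120 units in krill livers and 8820 to 11969 units in control livers, with 2 higher and 1 lower of 8. Markers of sinusoidal endothelial cells summed to 4530 to 12922 units in krill livers and 7946 to 9384 in control livers, and those of stellate cells or fibroblasts to 5338 to 8604 in krill livers and 4063 to 5874 in control livers, each with 1 higher and 1 lower. Markers of cholangiocytes spanned 171 to 730 units in krill livers and 201 to 328 in control livers, and those of T or B cells 304 to 929 in krill livers and 226 to 409 in control livers. Erythroid markers spanned 2023 to 8151 units in krill livers and 3269 to 3985 in control livers. Over all genes 23.2% were higher and 24.7% were lower, and the sums include listed markers under the signal filter. The part of cell type shifts in the chaperone results was not tested.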

How the data were processed

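Signal intensity per probe set was used as the authors deposited it, on a linear scale from MAS5, per the submitters' processing notes, with every array brought to the same mean after trimming 2% at each end, as tested on the values. No genome build is named for these intensities. From them, log2(signal + 16) was computed, so that fold changes of dim probe sets are understated, and limma 3.58.1 (R 4.3.3; lmFit, eBayes with a mean-variance trend) was fitted to krill minus control over 22518 probe sets, the upper 50% of 45037 that are no controls, with Benjamini-Hochberg adjustment and a threshold of 0.05. Changes are log2 changes from this fit, and fold changes are its powers of 2. Single values used exact permutation tests (Python 3.11.15, scipy 1.17.1). The platform annotation gave 1 gene for 34945 of the 45037 probe sets, several for 932 and none for 9160, and 34754 probe sets matched the GRCm38.p6 gene table. A gene's brightest probe set has the highest mean over all 14 arrays. All probe sets of the members were named whatever their values. Of each other list up to 4 genes of smallest p among those past the threshold were named, with Hsf1, Hspa1a and Hspa1b whatever their p. The members and lists were chosen with earlier results of these data known. The 4 differences within arrays were added after the values were seen. Promoter sequences are from RefSeq (GRCm38.p6). Alternatives covered the constant, scaling, signal filter, probe set summary, limma settings, a replicate block, array quality covariates and leaving arrays out. The procedure was tested on simulated data.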

Additional observations from a re-analysis of the deposited data

Results flagged for a closer look

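Dixon's test was run on 44 groups of 7 mice (22 probe sets, 2 diets). In 3 groups the gap of an extreme mouse to its neighbour was above the critical share of the group's range at 95%. Chance gives about 1 in 20 such groups. Gaps and ranges were taken on the log2 scale with the added constant, as in the limma fit. The signals below are in linear units, from which the shares would differ. At Dnajb1 probe set 1416756_at, krill replicate 2 was the highest krill mouse at 2927 units, with a gap of 0.574 of the range. At Hspe1 probe set 1450668_s_at, krill replicate 7 was the lowest krill mouse at 9771 units, with a gap of 0.703 of the range, and it is also the krill array inside the control range for Hspe1. At Hspb1 probe set 1425964_x_at, which was too dim to be tested, control replicate 6 was the lowest control mouse at 8.77 units, with a gap of 0.608 of the range. Krill replicates 2 and 7 are among the 4 arrays of high spike-in level.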

How the results depend on the processing

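The number of arrays limits the precision, and the 3'/5' index does not overlap between diets. Over all tested probe sets, 4684 were higher and 5681 lower in krill livers by limma. Higher counts were 2059 with arrays centred on their medians, 799 with spike-in scaling, 7191 with no filter, 3020 in the upper 30% of signal, 1137 with the spike-in level as covariate, 0 with the 3'/5' index (limma, 3241 at an unadjusted p under 0.05 in either direction), 2250 without the 4 krill arrays of high spike-in level, 2693 at 1 probe set per gene and 2586 when each gene's probe sets were averaged. Lower counts were 11081 with spike-in scaling, 2329 with the spike-in covariate, 0 with the index, 2873 at 1 probe set per gene and 2987 when averaged. Members called higher (6 at first) were 1 when centred, 0 with spike-in scaling, 3 with the spike-in covariate, 0 with the index and 3 at 1 probe set per gene. Members called lower (5 at first) were 10, 2 and 0 with spike-in scaling, spike-in covariate and index, 3 without the 4 arrays and 2 at 1 probe set per gene. Fewer probe sets were tested at 1 per gene, and the other causes were not tested. Leaving out 1 array at a time gave 3872 to 5746 higher, 4959 to 6202 lower, 5 to 6 members higher and 5 to 6 lower. The within-array differences, of pairs picked after the values were seen, then ran over these ranges. They were 0.862 to 1.075 (Hspe1 minus Hspd1), 1.99 to 2.39 (Hspa8 minus Hsp90aa1), 0.87 to 1.33 (Dnajb1) and 0.67 to 1.02 (Hsph1). Without the 4 arrays the Dnajb1 and Hsph1 differences were 0.61 and 0.29.

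Signs turned as follows, on the log2 scale. With spike-in scaling, Hspa8 1420623_x_at was -0.31, 1420622_a_at -0.36, Dnaja1 1460179_at -0.40, 1459835_s_at -0.72, Dnajb1 -0.092, Hspe1 -0.13, Hspb1 -0.60, Bag1 -0.15, Dnaja2 -0.090, Hspb8 -0.27 and Get3 -0.018. Centring gave Dnaja1 1460179_at -0.017, 1459835_s_at -0.33 and Hspb1 -0.25. The index covariate gave Hsp90aa1 0.18, 1426645_at 0.15, Dnaja1 0.80, Dnajb1 1416755_at 0.41, Hsph1 1423566_a_at 0.40, Hspd1 0.44 and Stub1 0.19. The spike-in covariate gave Dnaja1 0.34, Dnajb1 1416755_at 0.0041, Hspd1 0.13 and Hspb1 -0.10. Without the 4 arrays, Dnaja1 was 0.33, Hspd1 0.090 and Hspb1 -0.14, and the mean of its probe sets put Dnaja1 at 0.036. Dnaja1 1459835_s_at ranged from -0.067 (without krill replicate 7) to 0.160 over single arrays left out. Single arrays left out ended the calls of Hspa8 1420622_a_at (9 of 14 arrays, adjusted p up to 0.0931), Ttc4 (5 arrays, 0.0612), Hspb3 (10 arrays, 0.101), Hspb8 (1 array, 0.0532) and Hsf2 (7 arrays, 0.0695). The replicate block gave 4504 higher and 5584 lower. Same-numbered mice did not deviate together (correlations -0.03 to 0.09), and only numbers 3 and 5 matched best.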

Other observations

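Like most probe sets on the array, the heat shock probe sets varied more between krill mice than between control mice. The SD of the log2 signal was larger in the krill group at 18 of 19 tested members (94.7%), beside 87.5% of all 22518 tested probe sets. The median SD was 0.439 in krill livers and 0.334 in control livers for the members, and 0.602 in krill livers and 0.310 in control livers for all tested probe sets. Without the 4 krill arrays of high spike-in level the krill median was 0.325 for the members and 0.363 for all. Krill replicate 2 was the lowest krill mouse at 8 of the 19 probe sets and replicate 7 at 5, while replicate 1 was the highest at 8. This order was not counted over all tested probe sets, so it is not read as particular to the heat shock genes.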
